A study of Helianthus annuus with 12 samples.

Results

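Small interfering RNAs (siRNAs) that were read in every library of sunflower (Helianthus annuus) leaves and roots are described here. The table lists 15055 siRNAs among 15900 named small RNA features. Members were the siRNAs with a count of at least 10 in each of the 12 libraries, with novel_sir16402 left out. The rule gave 1181 siRNAs, 7.84% of all siRNAs. They were chosen by their measured counts, so their presence and their levels are a description and carry no test.

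In plants, siRNAs are cut by Dicer-like enzymes from double-stranded RNA, which RNA-dependent RNA polymerases or paired transcripts provide, and are then loaded into Argonaute proteins. Many of them guide DNA methylation at transposons and repeats. Others, such as trans-acting siRNAs, are made from transcripts that a microRNA has cut, and act on messenger RNAs. The files name each siRNA by a serial number with the prefix novel_sir and give it no sequence, no genome position and no target. No gene or function is therefore attached to any of them here, and entries could not be checked for shared sequence.

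All libraries came from seedlings of the cultivar R5, which the series' own description calls drought tolerant, at the 4-leaf stage. Treated seedlings stood for 24 h in 15% PEG 6000, polyethylene glycol, which draws water away from the roots by osmosis, and control seedlings stood in distilled water over the same time. Leaves and roots of control and of PEG seedlings made 4 groups with 3 libraries each. The sources used here give neither the plants behind each library nor whether leaves and roots of 1 number share plants, so p-values measure only the spread between these libraries. The table holds small RNAs and no messenger RNA markers of leaf or root, so the organ labels could not be checked with them. In such bulk samples, fewer cells that make an siRNA and less of it per cell cannot be told apart.

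Total counts ranged from 20829490 to 33426228 a library, of which 3199001 to 6795847 were in named features. Control root replicate 3 stood apart. It had the smallest number of siRNAs above 0, 1576, against 3701 and 3381 in the other control roots. Its scaling factor by the trimmed mean of M values (TMM) was 0.2919, and siRNAs took 7.03% of its named counts against 16.0% and 16.1% in the other 2. It also held 45653 reads of the mir-10 precursor family, an animal microRNA family used here as a sign of foreign RNA, against 424 to 1306 in the other 11 libraries. Whether these reads came from foreign RNA was not tested, nor was their part in the results. The main organ and root results are given with and without it.

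Most siRNAs were read in few libraries. Of the 15055, 3099 had counts in a single library and 1529 in 6 libraries, and the number rose again to 1068 in 11 libraries and 1182 in all 12, novel_sir16402 included. Leaves held more different siRNAs, 8782 to 9713 a library, than PEG roots with 4766 to 5289 and control roots with 1576 to 3701. A total of 8047 siRNAs were above 0 in leaves alone and 519 in roots alone. The siRNA class has no count between 1 and 9, so a 0 can stand for up to 9 reads.

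Control root replicate 3 largely set the list. It was the single library at 0 for 959 of the siRNAs read in the other 11, whereas each of the other libraries was missing alone for 1 to 28. It also held the lowest count of 897 of the 1181 members. The minimum of 10 counts equals 1.22 to 1.46 CPM (read counts per 1000000 of the TMM-scaled library size) in leaves, 2.33 to 2.57 in PEG roots, 3.61 and 3.81 in 2 control roots and 8.59 in control root replicate 3. A member could therefore be very low in leaves but not in control roots. Without that library the rule, in a form chosen after seeing the data, would take 2140 siRNAs.

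**Figure D1:**
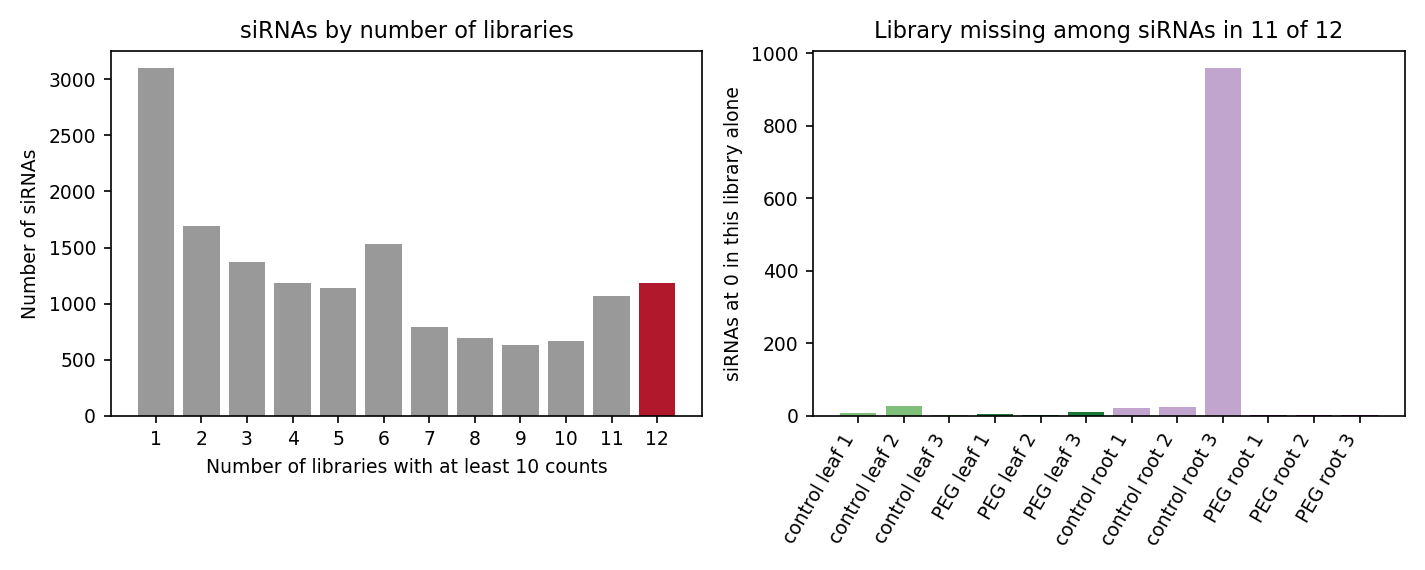
Left, number of siRNAs (vertical axis) by the number of libraries with at least 10 counts (horizontal axis), the 1182 in all 12 in red. Right, siRNAs at 0 in the named library and above 0 in the other 11; control root replicate 3 alone was missing for 959 siRNAs, and no other library for more than 28.

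Members just inside the rule had the minimum of 10 counts in at least 1 library. The leaf counts of novel_sir14786 were 10, 11 and 10 without PEG and 10, 15 and 22 with it, and its root counts 15, 29 and 12 without PEG and 39, 22 and 19 with it. novel_sir12078 and novel_sir16960 touched the minimum of 10 in control root replicate 3. Of siRNAs just outside, novel_sir4797 had 58 and 100 counts in 2 control roots and 0 in the third, and 10440 to 14943 counts in leaves. novel_sir4279 and novel_sir7171 each had 0 counts in PEG leaf replicate 3 alone, although novel_sir4279 reached 42926 counts in control leaf replicate 3.

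Members held most of the siRNA reads. In leaves they took 75.9% ± 1.94 (SD, n = 3) of siRNA counts without PEG and 78.0% ± 1.93 with it, and in roots 83.4% ± 1.32 without and 83.6% ± 1.28 with PEG. Of all deposited counts the leaf share was 4.63% ± 0.35 without PEG and 4.54% ± 0.28 with it, and the root share 1.76% ± 0.633 and 2.95% ± 0.0492. The control root libraries stood at 2.04%, 2.202% and 1.03%, and the PEG root libraries at 2.97%, 2.99% and 2.89%, so the root groups did not overlap. Ribosomal, transfer, small nuclear and small nucleolar RNA fragments stood the other way round, at 1.23% to 1.32% of all counts in PEG roots, 2.27% to 2.68% in roots of controls and 0.14% to 0.465% in leaves. The part of these fragments in the shares of the siRNAs was not tested.

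Levels spanned more than 3 orders of magnitude. The mean over the 4 groups had a median of 37.2 CPM, a 10th percentile of 11.3 and a 90th percentile of 250 CPM, and ranged from 4.59 to 15143 CPM. Only 28 members averaged at least 1000 CPM and 271 at least 100 CPM. Counts are not divided by length, so these ranks are ranks of reads. The first 10 members by mean level held 36.8% to 41.2% of member reads in each leaf library and 21.8% to 33.9% in each root library. It took 17 to 24 members to reach 50% of member reads in leaves and 25 to 44 in roots.

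novel_sir13757 was the most read siRNA in 11 of the 12 libraries and ranked 2 in PEG leaf replicate 3. In leaves its level was 21320, 17750 and 16840 CPM without PEG and 17080, 16750 and 13870 CPM with it. In roots it was 11980, 14360 and 11200 CPM without PEG and 14480, 9460 and 16600 CPM with it. The control leaf libraries lay above all control roots, while the PEG groups of the organs overlapped. Among all named features it ranked 6 to 10 in leaves and 11 to 32 in roots.

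novel_sir6423 ranked 2 to 4 among siRNAs in every library, with leaf means of 9814 CPM ± 1250 (SD, n = 3) in controls and 10570 ± 1220 under PEG, and root means of 7115 ± 1040 and 9197 ± 1090 CPM. novel_sir12465 ranked 2 to 5 in every library and stood at 7376 ± 721, 7376 ± 414, 7223 ± 1390 and 9545 ± 1260 CPM in the same order of groups. novel_sir16047, the other siRNA of this top set, varied more, from 8280 to 23410 CPM in leaves and from 1726 to 8120 CPM in roots, and ranked 1 to 3 in leaves and 3 to 27 in roots.

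The remaining 6 of the 10 most abundant averaged 3658 to 4795 CPM over the groups. novel_sir16958 and novel_sir15916 had no organ difference that passed the test given below, with novel_sir16958 at 3066 to 4479 CPM in leaves and 3961 to 6636 CPM in roots, and novel_sir15916 at 2327 to 6130 and 3359 to 4781 CPM. novel_sir12292, novel_sir15448, novel_sir14343 and novel_sir16865 had lower means in roots than in leaves within each treatment. Only novel_sir15448 passed that test in both treatments. novel_sir14343 and novel_sir16865 passed it in controls alone, and novel_sir12292 in neither. For novel_sir15448 the control leaves held 5915, 5336 and 4027 CPM and the control roots 1706, 1811 and 1865 CPM.

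**Figure D2:**
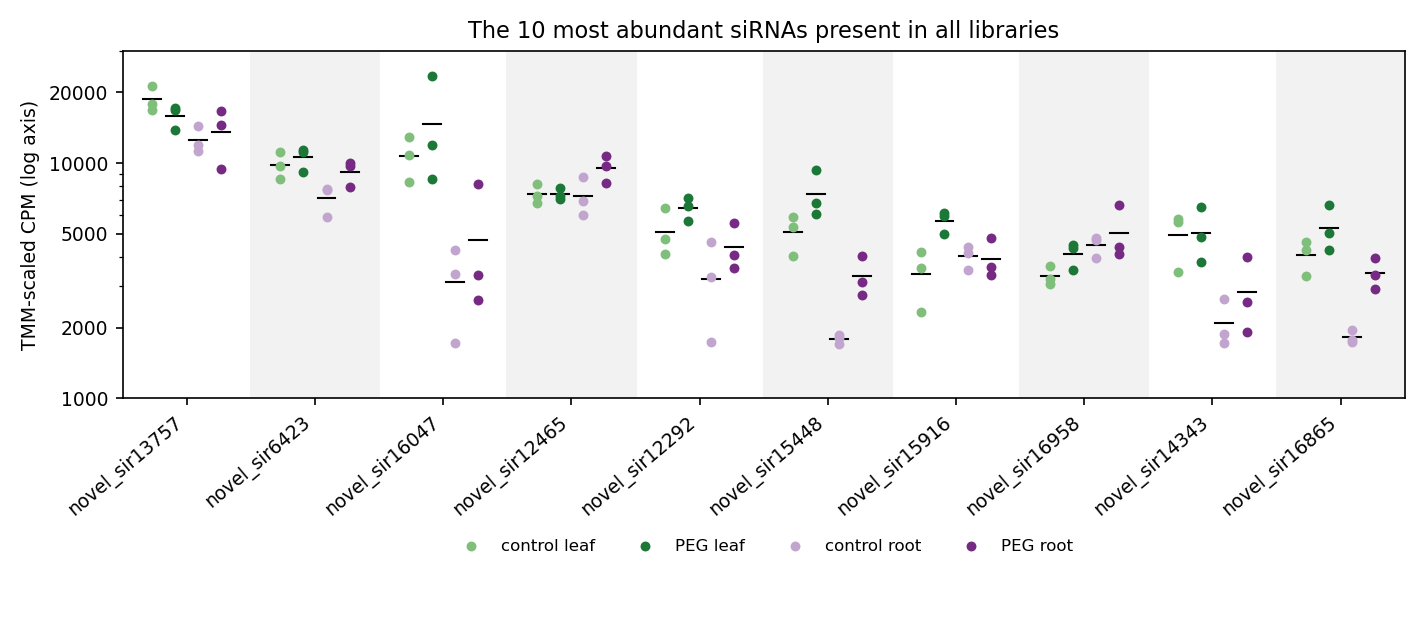
TMM-scaled CPM on a log axis of the 10 siRNAs with the highest mean level, each point 1 library and each bar the mean of 3. novel_sir13757 lay between 9460 and 21320 CPM, and novel_sir15448 and novel_sir16865 had control root points below all their leaf points.

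The order of levels was kept within organs and differed between them. Spearman correlations of levels over the 1181 members, which share library depth and scaling, were 0.872 to 0.938 within control leaf libraries and 0.902 to 0.935 within PEG leaf libraries, and 0.806 to 0.866 and 0.88 to 0.923 within the root groups. Between control leaves and control roots they were 0.306 to 0.588, and between PEG leaves and PEG roots 0.561 to 0.626. The low end in controls came from control root replicate 3, at 0.306 to 0.433. The other control roots stood at 0.502 to 0.588 with control leaves. Of the first 100 members of each group, 92 were shared by control and PEG leaves, 73 by control and PEG roots, 58 by control leaves and control roots and 69 by PEG leaves and PEG roots. All 4 groups shared 7 of their first 10 and 55 of their first 100 members. These shared numbers include control root replicate 3 in the control root mean. The median SD within a group was 0.349 and 0.35 on the log2 CPM scale in control and PEG leaves, and 0.467 and 0.363 in control and PEG roots.

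A few members were nearly level everywhere. novel_sir12822 had the smallest range, a ratio of 1.4 between its highest and lowest library, with 92.11 to 118.6 CPM over leaf libraries and 98.29 to 129.2 CPM over root libraries. novel_sir5057 stayed between 29.35 and 42.37 CPM, novel_sir16380 between 93.79 and 141.2 CPM, and novel_sir15031 between 306.4 and 480.3 CPM. These were picked for their small range, and the values describe that choice.

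Organ was the main axis of difference. In control seedlings 232 members were higher and 134 lower in roots than in leaves, 366 of 1181 or 31.0% at an adjusted p under 0.05 (edgeR quasi-likelihood test, Benjamini-Hochberg over all 10604 tested features). Over all tested features the share called was 23.8%, of which 5.48% were higher and 18.3% lower. Members were called higher in roots in 19.6% of cases and lower in 11.3%. In siRNAs outside the list, 175 of 9085 were higher and 1760 lower. The rule asked for reads in every root library, so siRNAs far lower in roots were kept out of the list and the shares do not compare like with like. The median log2 fold change, roots over leaves, was -0.05 over the members and -4.75 over all tested features.

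Libraries of the organs did not overlap for 603 members in control seedlings, 309 higher and 294 lower in roots, or 51.1% against 44.8% of all features with 6.37% higher and 38.4% lower. The members' log2 fold changes ran from -1.75 at the 5th to 4.28 at the 95th percentile with TMM factors; the rule bounds the low side, since a member could not be near 0 in control roots. At least 10-fold differences of group means were found for 104 members on the root side and 8 on the leaf side, and at least 100-fold ones for 11 and 0. Without control root replicate 3 the 10-fold counts were 69 and 7, and the 100-fold counts 7 and 0.

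How many members leaned to either organ depended on the scaling. Of the members called in control seedlings, 63.4% were higher in roots with TMM factors and 70.1% with the sum over the members as library size, chosen after seeing the data. The share was 57.2% with relative log expression (RLE) size factors, 26.3% with library totals alone, 18.9% with the total of all deposited counts and 12.9% with TMM factors from features other than siRNAs. The members' median log2 fold change moved with it, to -1.13 with library totals alone, -1.31 with all deposited counts and -1.66 with the factors from other features. Under all 6 scalings 102 members were called higher in roots and 104 lower. This count was made for the members alone, so no share of all features stands beside it.

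The number of calls also depended on the replicate block, which the deviations of the control libraries called for. With the replicate number as a block in the fit of all libraries, 175 members were higher and 66 lower in control roots, 241 in all, or 20.4% against 10.9% of all features. That fit also ties control to PEG libraries by number. With the block and the 6 control libraries alone, chosen after seeing the data, 110 were higher and 25 lower, 11.4% against 3.53% of all features. All 135 were among the 366. Without control root replicate 3, 207 were higher and 129 lower, 28.5% against 21.7% of all features, and 323 of the 336 were among the 366.

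The siRNAs highest in control roots over control leaves formed a group of like pattern. novel_sir7931 stood at 3.55, 2.44 and 2.11 CPM in control leaves and 1504, 1151 and 4942 CPM in control roots, with 5.40, 7.15 and 23.9 CPM in PEG leaves and 486.1, 439.4 and 601.5 CPM in PEG roots. Every root library lay above every leaf library. Its log2 fold change, control roots over control leaves, was 9.86 (SE 0.94, adjusted p = 0.000399, edgeR quasi-likelihood test with Benjamini-Hochberg adjustment). Among siRNAs it ranked 5 to 25 in control roots and 4132 to 6367 in control leaves.

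novel_sir8127 followed with 3.16, 2.07 and 3.30 CPM in control leaves and 1305, 868.1 and 3803 CPM in control roots. novel_sir8599 had 2.07 to 4.89 CPM in control leaves and 868.8 to 2844 CPM in control roots. novel_sir8601, novel_sir9721 and novel_sir9724 had 1.46 to 5.42 CPM in control leaves and 309.7 to 1367 CPM in control roots. The log2 fold changes of these 5 ran from 7.58 to 9.44. In all 6, control root replicate 3 was the highest library. Without it the 6 log2 fold changes ran from 6.85 to 8.83, and all 6 were still called, as in each of the other alternatives.

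Control leaves reached 0.107% to 0.519% of the control root level of these 6 siRNAs, and PEG leaves 1.8% to 3.01% of the PEG root level. In each of the 6 the PEG leaf mean lay above the control leaf mean and the PEG root mean below the control root mean. The 6 were chosen for high control roots and low control leaves, and the same control libraries enter these comparisons. The shared directions and percentages can follow from that choice and carry no test. Neither PEG effect passed the adjusted test for any of them. PEG leaf replicate 3 was the highest PEG leaf library in 4 of the 6.

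Other siRNAs were highest in control leaves over control roots. novel_sir16568 had 3375, 2621 and 1534 CPM in control leaves and 64.8, 75.2 and 73.0 CPM in control roots, and 2839, 3379 and 4338 against 98.4, 69.6 and 51.1 CPM under PEG. Leaf and root libraries were far apart in both treatments. Its log2 fold change, control roots over control leaves, was -5.14 (SE 0.40, adjusted p = 0.00013, edgeR with Benjamini-Hochberg adjustment). Among siRNAs it ranked 10 to 23 in leaves and 285 to 538 in roots.

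novel_sir12515 held 570.1 to 820.0 CPM in control leaves and 18.3, 58.6 and 24.0 CPM in control roots. novel_sir15423 held 1576, 1579 and 1708 CPM in control leaves and 88.0, 101.9 and 119.4 CPM in control roots. novel_sir6256, novel_sir13439 and novel_sir11275 had control leaf means of 379.1, 166.8 and 139.1 CPM and control root means of 23.5, 13.6 and 11.7 CPM. These 5 had log2 fold changes between -4.43 and -3.56, and all 6 were called in each of the 25 alternatives. An siRNA below 10 counts in any root library could not enter the list.

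**Figure D3:**
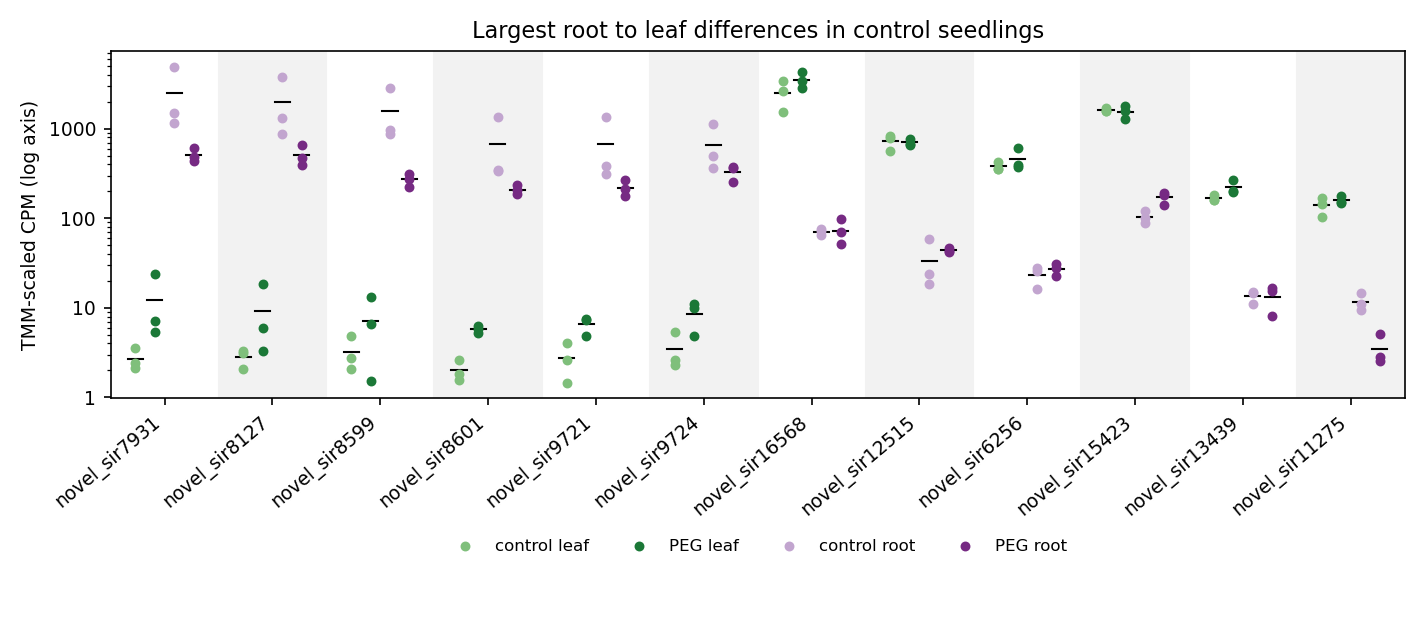
TMM-scaled CPM on a log axis of the 6 siRNAs with the largest and the 6 with the smallest log2 fold change, control roots over control leaves, each point 1 library and each bar the mean of 3. novel_sir7931 had root points between 439.4 and 4942 CPM and leaf points between 2.11 and 23.9 CPM; novel_sir16568 had leaf points from 1534 CPM up and root points up to 98.4 CPM.

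Of the 10 most abundant members, 4 were called lower in control roots, all by less than 4-fold with TMM factors. novel_sir15448 had a log2 fold change of -1.51 (SE 0.24, adjusted p = 0.00226) and novel_sir16865 one of -1.16 (SE 0.23, adjusted p = 0.0057) in edgeR. novel_sir14343 stood at -1.25 (adjusted p = 0.0243) and novel_sir16047 at -1.77 (adjusted p = 0.0333). Across the alternatives their log2 fold changes went down to -3.13 for novel_sir15448, -2.77 for novel_sir16865, -2.93 for novel_sir14343 and -3.28 for novel_sir16047. The block with control libraries alone ended all 4 calls, with adjusted p up to 0.221. The call of novel_sir16047 was also lost without control root replicate 2 or 3 or control leaf replicate 1 or 3, and that of novel_sir14343 without control root replicate 1 or control leaf replicate 2 or 3. The first, novel_sir13757, had a 95% interval of -1.08 to -0.07 on the log2 scale and an adjusted p of 0.0895 in edgeR. It was called lower in control roots in 11 of the 26 settings, and novel_sir6423 in 7.

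In PEG seedlings 194 members were higher and 90 lower in roots than in leaves, 284 or 24.0%, against 16.5% of all tested features with 4.27% higher and 12.3% lower. The median log2 fold change was 0.15 over the members and -1.15 over all features. Organ libraries did not overlap for 622 members, 381 higher and 241 lower, or 52.7% against 38.5% of all features with 11.3% higher and 27.2% lower. At least 10-fold differences of means were found for 44 members on the root side and 6 on the leaf side, and none reached 100-fold. The share of calls higher in roots was 68.3% with TMM factors, 78.9% with the sum over the members and 76.6% with library totals alone. It was 56.5% with all deposited counts, 49.1% with RLE factors and 17.5% with factors from other features. Without control root replicate 3, which enters here only through the spread, the filter and the scaling, 233 were higher and 112 lower. That was 29.2% against 19% of all features. Among the fits that left out 1 library, the fewest calls, 188 and 184, were left without PEG leaf replicate 1 and without PEG root replicate 3. These were 15.9% against 16.2% and 15.6% against 16% of all features. Leaving out PEG leaf replicate 2 gave 16.4% against 16.1%, and PEG leaf replicate 3 gave 17.3% against 18.3%. PEG root replicate 1 gave 16.8% against 15.8%, and PEG root replicate 2 gave 17.4% against 16.3%. So without any single PEG library, members were called about as often as all features.

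The organ comparisons under control and PEG share no library. Of the 232 members called higher in control roots, 69.8% were also called higher under PEG, as 83.5% of the 194 called there. Of the 134 called lower in control roots, 57.5% were also lower under PEG, 85.6% of the 90 called there. None was called in opposite directions. Over the members the log2 fold changes correlated at a Pearson r of 0.906 and a Spearman rho of 0.881, a description across siRNAs, which are not independent replicates. Under every one of the 6 scalings and in both treatments, 61 members were called higher and 38 lower in roots. These overlaps were counted for the members alone, so they do not set the members apart from all features. novel_sir15448 kept its place, at -1.17 (adjusted p = 0.00643) in PEG seedlings.

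**Figure D4:**
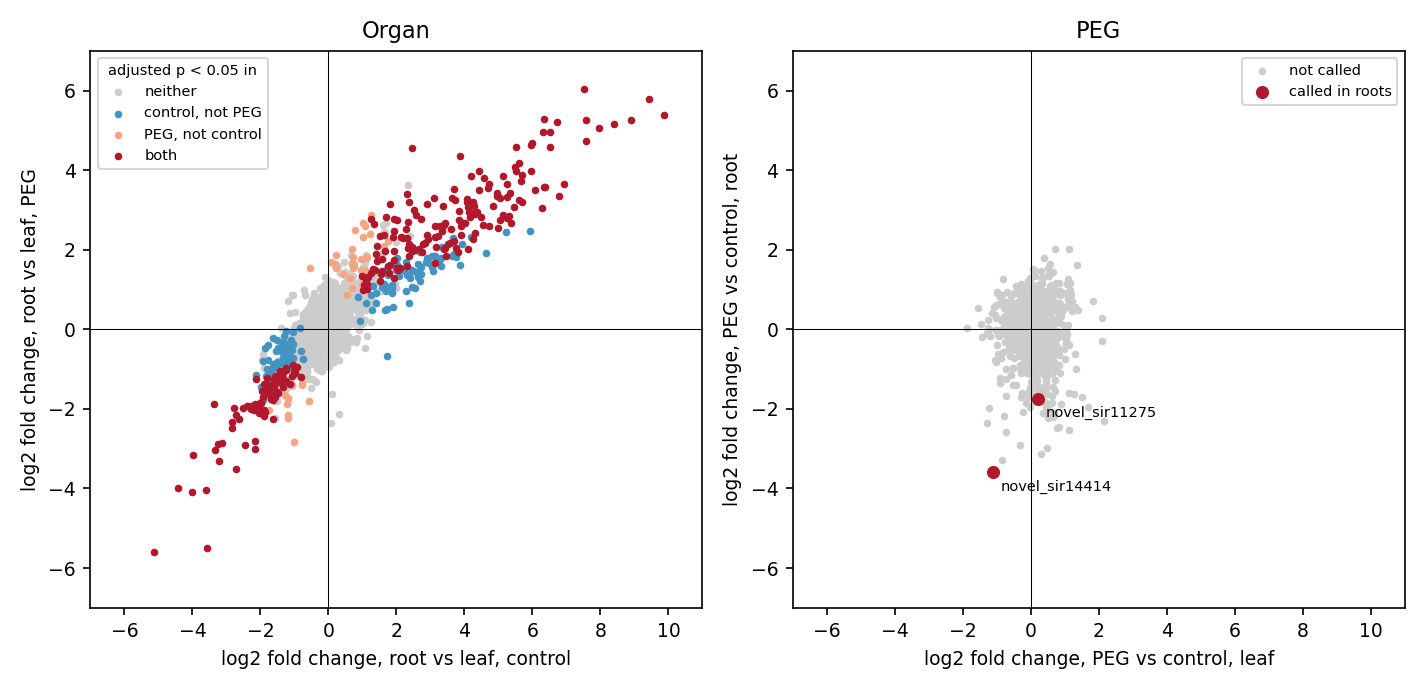
Log2 fold changes of the 1181 siRNAs, each point 1 siRNA. Left, roots over leaves under PEG against the same in controls, coloured by the comparison with an adjusted p under 0.05; right, PEG over control in roots against leaves, with the 2 siRNAs called in roots in red. Organ differences reached 9.86 and lay along a line, while PEG changes lay around 0 in both organs.

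In leaves no member changed with PEG at an adjusted p under 0.05 in edgeR, and the smallest adjusted p was 0.703. The background was 0%, with no call in any tested feature. At an unadjusted p under 0.05 there were 39 members, 3.3% against 3.6% of all features, with 23 higher and 16 lower. DESeq2 called 1 member, 0.0847% against 0.245% of all features, and limma voom 2, 0.169% against 1.71%. Leaf libraries of the treatments did not overlap for 147 members, 12.4% against 11.7% of all features with 6.21% higher and 5.51% lower; 66 members were higher and 81 lower. The members' log2 fold changes, PEG over control, had a median of 0.04 and lay between -0.72 and 0.81 from the 5th to the 95th percentile, and 1124 of the 1181 were within 1 of 0.

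The largest leaf differences were read against this background. novel_sir6458 had 17.4, 8.77 and 56.5 CPM in control leaves and 124.2, 110.6 and 118.3 CPM in leaves under PEG, and limma voom called it at an adjusted p of 0.019. novel_sir10680 had 5.65, 3.65 and 2.77 CPM in control and 22.3, 12.9 and 16.4 CPM in PEG leaves, and DESeq2 called it at an adjusted p of 0.0463. Their groups did not overlap, and edgeR gave both a log2 fold change of 2.09 and an adjusted p of 0.703.

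novel_sir14004 stood at 38.9, 22.0 and 161.3 CPM in control and 255.6 to 270.2 CPM in PEG leaves, with a log2 fold change of 1.84. On the low side, novel_sir16965 had 8.15, 7.55 and 5.55 CPM in control and 1.52, 3.07 and 2.56 CPM in PEG leaves, and novel_sir3401 had 35.6, 57.8 and 42.8 CPM against 19.3, 16.6 and 13.5 CPM. Both had separate groups, with log2 fold changes of -1.56 and -1.46. novel_sir15394 stood at -1.43, also with separate groups, and novel_sir16243 at -1.88, with overlapping groups. The 95% interval of novel_sir3401 ran from -2.27 to -0.66, which leaves room for a change that the adjusted test did not call.

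In roots 2 members changed with PEG, both lower, 0.169% against 2.17% of all tested features. Over all features 2.1% were higher and 0.066% lower. Among the 9085 siRNAs outside the list, 223 were higher and 1 lower. Those had no minimum to meet in control roots, so the lists are not alike in what could rise. At an unadjusted p under 0.05 there were 51 members higher and 49 lower, 8.47% against 11.8%. Root libraries of the treatments did not overlap for 192 members, 126 higher and 66 lower, 16.3% against 9.33% of all features with 7.23% higher and 2.09% lower.

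novel_sir14414 fell from 69.0, 88.5 and 56.7 CPM in control roots to 5.65, 7.11 and 5.13 CPM in PEG roots. The groups were far apart. Its log2 fold change was -3.58 (SE 0.76, adjusted p = 0.0365, edgeR with Benjamini-Hochberg adjustment). In leaves it had 51.5, 50.4 and 70.8 CPM in controls and 35.5, 40.6 and 3.27 CPM under PEG, so PEG leaf replicate 3 was as low as the PEG roots. The call was lost in 17 of 24 alternatives, with adjusted p from 0.000212 to 0.32, while the log2 fold change stayed between -3.74 and -2.85.

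novel_sir11275, one of the leaf-rich siRNAs, fell from 9.53, 14.5 and 11.2 CPM in control roots to 5.14, 2.54 and 2.80 CPM in PEG roots, a log2 fold change of -1.74 (SE 0.37, adjusted p = 0.0398 in edgeR). Its PEG root counts were 20, 10 and 12, at or near the minimum. The log2 fold change lay between -2.12 and -0.98 over 24 alternatives. The call was lost in 18 of them, among these the fit without control root replicate 3, which left no member called. Leaving out 1 library left 0 calls without control leaf replicate 1 or 2, PEG leaf replicate 1, control root replicate 3 or PEG root replicate 2 or 3, and 1 without control leaf replicate 3, PEG leaf replicate 2 or PEG root replicate 1. It gave 9 without control root replicate 1, 0.762% against 5.11% of all features. There were 5 without control root replicate 2, 0.423% against 4.08%, and 3 without PEG leaf replicate 3, 0.254% against 2.38%.

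novel_sir11212 resembled novel_sir14414 in pattern. It had 28.6, 34.0 and 15.5 CPM in control and 2.83, 2.54 and 2.57 CPM in PEG roots, and 1.85 CPM in PEG leaf replicate 3 against 19.4 CPM in each of the other PEG leaves. Its PEG root counts were 11, 10 and 11, and its count in PEG leaf replicate 3 was 13, at or near the minimum. Its log2 fold change of -3.29 missed the threshold (adjusted p = 0.0599). novel_sir5741 and novel_sir5550, at -3.13 and -2.98, rested on control root replicate 3, with 1758 and 1045 CPM there against 102.6 to 188.7 CPM in the other control roots. Without that library they stood at -0.76 (adjusted p = 0.649) and -1.37 (adjusted p = 0.282) in edgeR.

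On the high side no member passed the test. novel_sir13930 had 3.81, 5.42 and 10.3 CPM in control and 23.4, 47.8 and 6.99 CPM in PEG roots, with overlapping groups and a log2 fold change of 2.02. novel_sir93 had 12.2, 18.8 and 8.59 CPM in control and 57.0, 54.9 and 26.8 CPM in PEG roots, with separate groups and 1.80 (adjusted p = 0.181). novel_sir16774 and novel_sir11319 stood at 2.02 and 1.64, both with separate groups.

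The centre of the root PEG values moved with scaling. The members' median log2 fold change, PEG over control roots, was 0.12 with TMM factors against 0 over all features, 0.05 with the sum over the members, -0.05 with RLE factors, 0.89 with library totals alone and 0.75 with all deposited counts. With TMM factors, 1052 of the 1181 lay within 1 of 0, and the 5th and 95th percentiles were -1.36 and 0.92. With library totals alone 2 members were called, both higher, 0.169% against 2.17% of all features. With DESeq2 there were 32, all lower, 2.71% against 3.85%. A common shift of the members in PEG roots and a shift of the scaling cannot be told apart.

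PEG effects in leaves and roots, which share no library, showed no common direction. Over the members the log2 fold changes had a Pearson r of -0.019 and a Spearman rho of -0.014, and 553 of 1181 had the same sign. The difference of PEG effects, roots minus leaves, passed the test for 1 member, novel_sir7931, against 2.03% of all features with 1.98% higher and 0.0472% lower. Its PEG effect was 2.16 in leaves and -2.31 in roots, neither called alone. Unadjusted, 66 members or 5.59% were under 0.05, against 10.2% of all features.

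Some members dropped in a single library. In 32 members 1 library lay at least 8-fold below the next lowest of its own group, 38 cases in all, whereas such single high values occurred in 7. This contrast held only at the 8-fold gap. At 4-fold, 52 members had a low library and 53 a high one, 67 and 56 cases. Control root replicate 3 held 28 of these highs. At the 8-fold gap, control leaf replicates 2 and 3 had 6 and 8 of the lows. PEG leaf replicates 1 and 3 had 4 and 6 of them, and control root replicates 2 and 3 had 4 each. The siRNAs named for this pattern were chosen after their values were seen.

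Low values in control leaves and control roots tended to carry the same replicate number. For 13 of the 15 control leaf lows, the lowest control root library had that number, and for all 9 control root lows the lowest control leaf library did. Where both organs dropped by 8-fold, in 4 members, the number matched in each. With lows of at least 4-fold it matched for 22 of 26 control leaf lows and 13 of 20 control root lows, and for all 10 members low in both. novel_sir10074 had 399.6, 396.2 and 5.95 CPM in control leaves and 364.4, 138.8 and 11.2 CPM in control roots. novel_sir13758 had 11.4, 163.1 and 192.2 CPM in control leaves and 16.0, 514.3 and 360.7 CPM in control roots, low in replicate 1 of both. Under PEG the numbers did not match. The number was the same for 2 of the 12 PEG leaf lows, and in 2 members PEG leaf replicate 3 and PEG root replicate 1 were low together. One of these, novel_sir15641, had 1038, 814.8 and 7.25 CPM in PEG leaves and 41.3, 507.5 and 350.2 CPM in PEG roots.

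**Figure D5:**
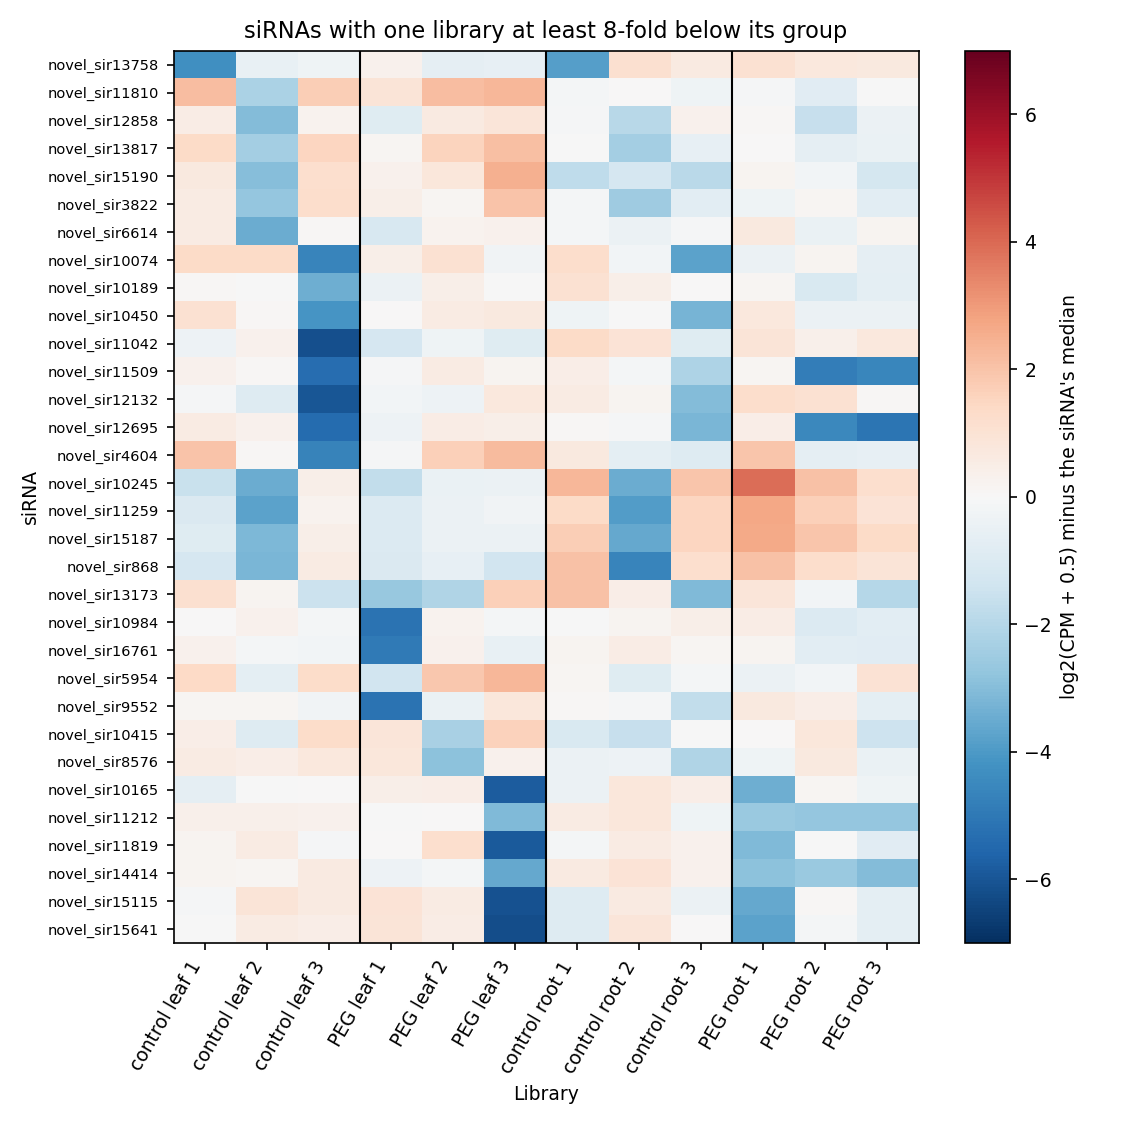
Log2 of CPM plus 0.5, minus the siRNA's median over the 12 libraries, for the 32 siRNAs with 1 library at least 8-fold below the next lowest of its group, with libraries in columns. Blue cells in control leaf and control root columns often carried the same replicate number, as in novel_sir10074 and novel_sir13758, while in PEG columns leaf replicate 3 and root replicate 1 were low together in novel_sir15641.

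MicroRNA families tied to small RNA production gave some context for the organs. miR168, which targets ARGONAUTE1 in Arabidopsis, averaged 25500 CPM ± 4700 (SD, n = 3) in leaves of controls and 31200 ± 9200 under PEG, and 8480 ± 2230 and 12600 ± 2180 CPM in roots. miR162, which targets DICER-LIKE1 in Arabidopsis, stood at 150 ± 57.4, 268 ± 185, 43.9 ± 4.59 and 59.0 ± 28.5 CPM. miR390, which starts trans-acting siRNA production in Arabidopsis, ran the other way at 113 ± 23.4, 95.3 ± 3.29, 567 ± 191 and 473 ± 115 CPM. Of 10 tested names of these and related families, 3 were higher and 2 lower in control roots than in control leaves, 2 and 2 under PEG, and none was called for PEG in either organ.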

How the data were processed

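Small RNA was sequenced from total RNA by BGI500 protocols, per the labels. The authors deposited raw read counts per small RNA entry and the same values as TPM, which equalled the count per 1000000 of the column total within 0.0051 in 98.69% of values above 0 and were used only for that check. Bowtie2 2.2.9 and Bowtie appear in the submitters' processing notes. The sources used here give neither their roles nor the genome build nor how siRNAs were predicted. Of 15903 entries, 3 name no feature and held 79.7% to 86.0% of each library's counts; they stayed out of library sizes and tests.

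Tests were run on the counts with edgeR 4.0.16 in R 4.3.3 (TMM factors, glmQLFit and glmQLFTest, means of the 4 groups over all 12 libraries). A feature needed at least 10 counts in 3 or more libraries to be tested, which left 10604, and an adjusted p (Benjamini-Hochberg) under 0.05 was called. All 1181 members passed this filter. CPM values use TMM-scaled sizes, and ranges come from counts without molecular identifiers. limma 3.58.1 and DESeq2 1.42.0 were alternatives. The procedure was tested on simulated data.

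Groups and replicate numbers came from the sample titles. Over the members, deviations from the group means correlated at 0.34, 0.321 and 0.484 between control leaf and control root libraries of the same number, all over 0.1. Control libraries of unlike numbers stood between -0.347 and 0.111, so leaf replicate 2 with root replicate 1 also passed 0.1. Numbers were therefore taken to pair these libraries in the fits with a replicate block. The labels do not state this pairing. The main fit did not use it, so its calls and adjusted p-values for organs in controls are unpaired. Under PEG the same-number correlations were -0.22, -0.273 and -0.316, and those of unlike numbers ran from -0.054 to 0.328. In the fit of all libraries the block also ties control to PEG libraries of the same number. Those pairs correlated at -0.363 to -0.053 in leaves and 0.028 to 0.165 in roots.

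siRNAs are named by rule: the 10 with the highest mean level, the 6 largest organ differences in each direction in controls, PEG calls plus the 4 largest changes each way, the 4 smallest ranges, and 3 each just inside and outside the count rule. Members, lists and rules were chosen with earlier results of these data known.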

Additional observations from a re-analysis of the deposited data

Results flagged for a closer look

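The PEG effects of novel_sir7931 differed between roots and leaves by a test of the difference itself. The log2 fold changes, PEG over control, differed by -4.48 (roots minus leaves, SE 0.96, adjusted p = 0.0422, edgeR quasi-likelihood test with Benjamini-Hochberg adjustment). The PEG effect was 2.16 in leaves and -2.31 in roots. All 3 leaf libraries under PEG lay above the 3 controls, and all 3 root libraries under PEG lay below the 3 controls. The leaf values were 3.55, 2.44 and 2.11 CPM in controls and 5.40, 7.15 and 23.9 CPM under PEG. The call was lost in 16 of 23 alternatives, with adjusted p from 0.00263 to 0.486. Leaving out 1 library ended it except for PEG leaf replicate 1 and control root replicates 1 and 2, with -3.48 (adjusted p = 0.0739) without control root replicate 3 and -3.53 (adjusted p = 0.0699) without PEG leaf replicate 3.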

How the results depend on the processing

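Requiring 20 or 30 counts in all libraries left 689 or 489 siRNAs, and 10 counts in at least 11 libraries gave 2249. For roots against leaves in controls, 366 members were called, 31% against 23.8% of all features. The total of all deposited counts gave 608, 51.5% against 36.6%. TMM factors from features other than siRNAs gave 792, 67.1% against 45.7%. A filter of 10 counts in all libraries gave 555, 47% against 49.9%, so members were then called less often than all features. Zeros set to 9 gave 566, 47.9% against 24.1%. The replicate block gave 241, 20.4% against 10.9%, and the replicate block with the control libraries alone 135, 11.4% against 3.53%. Under PEG the 284 calls became 184 with library totals alone, 15.6% against 15.1% of all features. The filter in all libraries gave 463, 39.2% against 41.4%, and the replicate block 133, 11.3% against 6.45%. Same-numbered PEG libraries did not deviate together, so this block pairs by number alone.

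For PEG in leaves, 0 calls became 2 with limma voom and 1 with DESeq2. For PEG in roots, 2 became 4 with RLE factors (lower), 0.339% against 2.17% of all features. Factors from features other than siRNAs also gave 4 (higher), 0.339% against 2.18%. There was 1 without a filter, 0.0847% against 1.43%, and 32 with DESeq2, 2.71% against 3.85%. There were 0 with the filter in all libraries, zeros set to 9, the replicate block or the groups compared alone. The 1 difference of PEG effects became 0 with library totals alone, all deposited counts, no filter, the filter in all libraries, zeros set to 9, the replicate block and limma voom. It became 11 with DESeq2, 0.931% against 2.31% of all features.

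Leaving out 1 library gave 290 to 370 calls for organs in controls, 24.6% to 31.3% against 21.7% to 27.2% of all features. Under PEG there were 184 to 345, 15.6% to 29.2% against 15.8% to 19.2%. There were 0 to 0 for PEG in leaves, 0 to 9 in roots and 0 to 5 for the difference. Under PEG the organ calls fell to 188 without PEG leaf replicate 1, 15.9% against 16.2%, and to 184 without PEG root replicate 3, 15.6% against 16%. Leaving out any other single PEG library gave 16.4% to 17.4% against 15.8% to 18.3%. The causes were not tested. Of 450 values of the 18 named siRNAs called for organs in controls, 30 lost the call. For PEG in roots the 2 called siRNAs lost it in 35 of 48 values, and the other 7 named gained 7 calls. The minimum of 10 counts limits how low a member can be, most in control root replicate 3.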
